A study of Mus musculus with 12 samples.

Results

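The Cyp2c genes encode cytochrome P450 enzymes, and H3K9ac peaks were described here for 10 of them, namely Cyp2c29, Cyp2c37, Cyp2c38, Cyp2c39, Cyp2c40, Cyp2c44, Cyp2c50, Cyp2c54, Cyp2c55 and Cyp2c70, of 21911 protein-coding genes in all. A peak was counted for a gene when it overlapped the gene body, or the 5 kb on either side of the gene start, by at least 1 bp (GENCODE M21, mm10). By this rule 73 of the 102889 peaks in the 6 lists belonged to the 10 genes, and no peak belonged to more than 1 of them. Acetylation of histone H3 at lysine 9 (H3K9ac) had been measured by ChIP-seq in livers of adult mice, 2 of C57BL/6J (B6), 2 of MSM/Ms (MSM), 1 offspring of a B6 female crossed with an MSM male (F1 BM) and 1 of the reciprocal cross (F1 MB). B6 is the strain of the reference genome and MSM an inbred strain from Japanese wild mice. No mouse carried a transgene or was treated, as far as the labels say, and each library came from 1 mouse. The input libraries of these mice were not analysed here.

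Enzymes of the Cyp2c family sit in the membrane of the endoplasmic reticulum of hepatocytes, where they oxidise drugs, steroids and fatty acids. Many of them turn arachidonic acid into epoxy or hydroxy derivatives that act as lipid signals. Mouse has many more Cyp2c genes than human, most of them in tandem copies on 1 chromosome. Their transcription in liver is known to depend on hepatocyte factors such as HNF4 and on nuclear receptors for foreign compounds, and several of them differ between the sexes. H3K9ac is found at the starts of active genes.

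Of the 10 genes, 9 lay in a cluster on chromosome 19, from Cyp2c55 at chr19:39007019-39042693 to Cyp2c70 at chr19:40153353-40187333. Cyp2c44, named Cyp2c23 in the annotation, lay apart at chr19:44005022-44029208. Peaks were found at 9 of the 10 genes, mostly over the first exon and the first intron. The promoter table of RefSeq (GRCm38.p6) matched 8 of the 10 genes, all but Cyp2c54 and Cyp2c44. Promoters of 5 genes are shown, as the 250 bases before the start of the principal transcript (the APPRIS principal transcript in the annotation), because the peaks began at their downstream end and because they hold the searched motifs. Cyp2c38 (chr19:39463076-39463325, minus strand) and Cyp2c39 (chr19:39510612-39510861, plus strand) are the pair whose peaks went in opposite directions between the strains, Cyp2c37 (chr19:39992174-39992423, plus strand) had a shorter peak in MSM, Cyp2c40 (chr19:39812815-39813064, minus strand) had a higher fold enrichment in MSM, and Cyp2c70 (chr19:40187287-40187536, minus strand) had a small upstream peak in MSM. Capitals mark matches to any of the motifs named in the next paragraph. The last capitals of Cyp2c40 are part of a TTGCNNAA match that runs across the start and is cut at the end of the line.
Cyp2c38: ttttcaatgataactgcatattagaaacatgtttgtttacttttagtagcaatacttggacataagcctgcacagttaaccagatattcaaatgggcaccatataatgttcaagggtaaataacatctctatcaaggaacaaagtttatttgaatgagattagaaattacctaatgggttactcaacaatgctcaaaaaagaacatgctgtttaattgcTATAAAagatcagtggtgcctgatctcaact
Cyp2c39: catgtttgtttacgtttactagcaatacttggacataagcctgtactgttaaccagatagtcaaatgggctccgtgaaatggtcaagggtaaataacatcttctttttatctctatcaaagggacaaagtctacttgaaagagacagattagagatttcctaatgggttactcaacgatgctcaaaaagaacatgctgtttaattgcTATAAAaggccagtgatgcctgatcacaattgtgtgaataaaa
Cyp2c37: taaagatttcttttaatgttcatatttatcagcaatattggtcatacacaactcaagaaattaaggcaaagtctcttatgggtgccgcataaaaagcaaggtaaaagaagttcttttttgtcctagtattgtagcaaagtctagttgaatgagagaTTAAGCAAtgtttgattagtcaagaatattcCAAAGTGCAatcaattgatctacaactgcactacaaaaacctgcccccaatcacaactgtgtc
Cyp2c40: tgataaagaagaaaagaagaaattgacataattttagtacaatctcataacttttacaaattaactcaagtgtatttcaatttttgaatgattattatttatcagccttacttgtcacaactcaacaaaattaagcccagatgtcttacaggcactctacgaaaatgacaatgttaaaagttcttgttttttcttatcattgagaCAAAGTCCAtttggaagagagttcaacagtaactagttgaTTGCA
Cyp2c70: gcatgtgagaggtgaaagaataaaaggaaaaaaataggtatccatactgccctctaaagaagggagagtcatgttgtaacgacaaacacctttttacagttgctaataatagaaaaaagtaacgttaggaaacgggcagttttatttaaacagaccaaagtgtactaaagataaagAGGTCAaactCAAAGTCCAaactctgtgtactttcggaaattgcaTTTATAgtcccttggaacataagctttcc

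The motifs were searched on both strands in the whole RefSeq entries, 250 bases before to 50 after the start, of the 8 genes and of all 32851 promoters. CAAAGTNCA, the core that HNF4 binds, was present in 4 of 8 Cyp2c promoters, those of Cyp2c40, Cyp2c37, Cyp2c50 and Cyp2c70, and in 1.41% of all promoters. It lay between 78 and 37 bases before the principal start in each of the 4. TATAAA was present in 6 of 8, against 13.6% of all promoters. In Cyp2c38 it lay 31 to 26 bases before the start, in Cyp2c39 43 to 38 bases before it, and in Cyp2c40 downstream of the start. In Cyp2c29 it lay only 8 to 3 bases before the principal start, and in Cyp2c70 it was on the opposite strand, 29 to 24 bases before the start. AGGTCA, a nuclear receptor half-site, was present in 2 of 8 (Cyp2c29 and Cyp2c70; 16.3% of all), TTGCNNAA, a C/EBP motif, in 2 of 8 (Cyp2c40 and Cyp2c37; 10.8% of all) and TTCNNNGAA, a STAT5 motif, in 0 of 8 (8.3% of all). In the promoter of Cyp2c70 AGGTCA and CAAAGTNCA lay 4 bases apart. The 8 promoters were poor in CpG, with 0 to 4 CpG sites and a median of 1.5, against a median of 7 over all promoters, and in GC, with a median of 35.7% against 52.7%. Several of these genes are copies of each other, so the 8 promoters are not independent, and a match is a description of the letters only.

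The 6 lists held between 11619 and 22968 peaks and covered between 6.28 and 16.02 Mb. The B6 libraries were at both ends, with B6 replicate 1 the longest list and B6 replicate 2 the shortest, so a missing peak in B6 replicate 2 was read with this in mind. A start peak was present at 7 of 8 hepatocyte markers in every library, at 0 of 5 Kupffer cell markers in every library, at 0 of 5 stellate cell markers in all but F1 BM, which had 1, and at 0 to 4 of 5 endothelial markers. Cholangiocyte and lymphoid markers had 1 start peak each, in B6 replicate 1. The sex of the mice was not in the labels. Xist, expressed from the inactive X chromosome, had a start peak in 6 of 6 libraries, and the Y-linked genes Ddx3y, Eif2s3y, Kdm5d and Uty had none in any library. Peaks elsewhere on the Y chromosome numbered 8 and 4 in MSM, 9 in F1 BM, 1 in F1 MB and 0 in both B6 libraries. The lists hold no read counts, so depth was not used, and the strains could be compared only as 2 libraries against 2. With 4 parental libraries there are 6 ways to assign the strain labels, so an exact two-sided permutation test cannot go below p = 0.333, and each p of 0.333 below is that smallest value. A gene was therefore called higher in a strain when both of its libraries lay above both libraries of the other strain, and the count was read against the share of all genes called by the same rule.

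The Cyp2c genes were marked in both strains, at nearly the same set of starts. The number of the 10 genes with a peak within 1 kb of the start of the principal transcript was 9 in B6 replicate 1, 8 in B6 replicate 2, 8 in each MSM library and 9 in each F1 library. Counted at the gene start instead, 7 or 8 of the 10 had one in each library, whereas the share over all protein-coding genes was between 27.9% and 44.2%. The length under peaks, summed over the 10 genes, was 13472 bp (replicate 1) and 8721 bp (replicate 2) in B6, 9854 and 9169 bp in MSM, 16978 bp in F1 BM and 7350 bp in F1 MB. Pairs of values for a strain are given in this order, replicate 1 before replicate 2, throughout. The B6 libraries lay on either side of both MSM libraries, so the strains overlapped. MSM minus B6 was −1585 bp, less than the spread between libraries of a strain (pooled SD 2400 bp, exact permutation p = 1). This spread came mostly from B6, with an SD of 3359 bp against 484 bp in MSM. Without B6 replicate 1, the longest list, the difference was +790.5 bp, and with the lists cut to the same covered length it was +2427 bp (exact permutation p = 1). The strongest peak of each gene was also ranked by fold enrichment among all peaks of its list. The median percentile over the Cyp2c genes with a peak was 77.3 and 69.9 in B6, 65.2 and 85.9 in MSM, 89.2 in F1 BM and 59.2 in F1 MB. Over all other genes with a peak it was 73.4 and 65.1 in B6, 68.9 and 68.2 in MSM, 67.4 in F1 BM and 65.2 in F1 MB, so that the Cyp2c genes lay above it in 4 of 6 libraries.

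**Figure D1:**
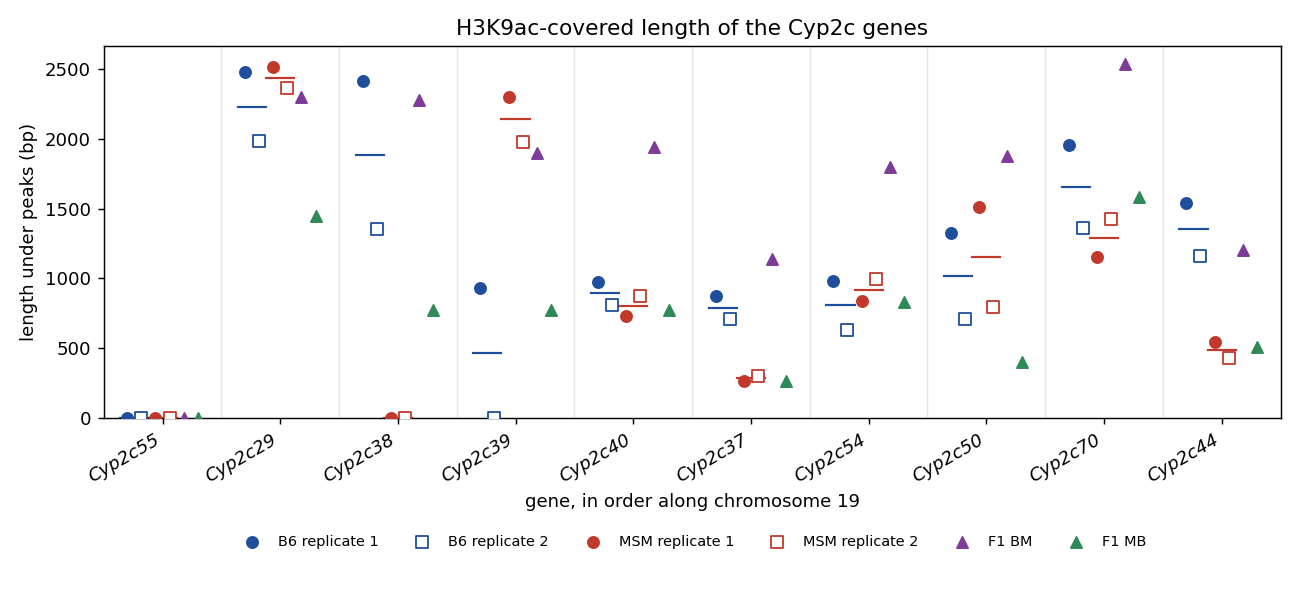
Length under H3K9ac peaks (bp) in each of the 10 Cyp2c genes, ordered along chromosome 19, with 1 point per library and a horizontal line at the mean of the 2 libraries of B6 and of MSM. Cyp2c38, Cyp2c37 and Cyp2c44 had both B6 points above both MSM points, Cyp2c39 had both MSM points above both B6 points, and Cyp2c55 was at 0 in every library.

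Gene by gene, the length under peaks was higher in B6 at Cyp2c38, Cyp2c37 and Cyp2c44 and higher in MSM at Cyp2c39, and the strains overlapped at the other 5 genes with a peak. Thus 3 of 9 genes with a parental peak were called higher in B6, where the rule called 11.6% of 11446 genes, and 1 of 9 was called higher in MSM, where it called 4.97%. The median of MSM minus B6 was −89 bp over the 9 genes with a parental peak and −123.5 bp over all genes tested. With so few genes these counts are given as a description. All 4 of these genes kept their call with the lists cut to the same number of peaks, where the rule called 4 Cyp2c genes in B6, Cyp2c70 being added, and 1 in MSM, against 19.2% and 8.91% of all genes. With the lists cut to the same covered length, where it called 15.6% and 17.4%, the call of Cyp2c38 was lost, because the B6 replicate 1 peak was not among the strongest peaks kept, those of Cyp2c39, Cyp2c37 and Cyp2c44 remained, and Cyp2c29 was called higher in MSM.

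Cyp2c38 and Cyp2c39, neighbours transcribed in opposite directions away from each other, had opposite patterns. Both encode arachidonic acid epoxygenases, and Cyp2c39 is also known to oxidise retinoic acid. The length under peaks at Cyp2c38 was 2418 and 1356 bp in B6, 0 in both MSM libraries, 2279 bp in F1 BM and 772 bp in F1 MB. At Cyp2c39 it was 930 bp and 0 in B6, 2301 and 1978 bp in MSM, 1900 bp in F1 BM and 776 bp in F1 MB. So each MSM library had its peak at Cyp2c39 and none at Cyp2c38, B6 replicate 2 had the reverse, B6 replicate 1 had both, and so did both F1 mice. MSM minus B6 was −1887 bp at Cyp2c38 (pooled SD 531, exact permutation p = 0.333) and +1674.5 bp at Cyp2c39 (pooled SD 492, p = 0.333), 3.55 and 3.40 times the SD.

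The peaks that were present also differed in strength. The strongest peak of Cyp2c38 had a fold enrichment over background, the peak caller's ratio, of 7.87 and 5.16 in B6, 5.58 in F1 BM and 6.61 in F1 MB. That of Cyp2c39 had 9.52 and 9.98 in MSM, 4.90 in F1 BM, 6.28 in F1 MB and 4.26 in B6 replicate 1. In B6 replicate 1 the mark at Cyp2c39 was made of 3 short peaks of 305 to 318 bp, one of them 907 to 590 bp upstream of the start, whereas the MSM peak at the start was 1101 bp and 1978 bp wide. MSM replicate 1 also had 3 peaks there, the others being 855 and 345 bp wide. In the ranking of each list by fold, the Cyp2c39 peak was at the percentile of 93.4 in both MSM libraries and of 32.5 in B6 replicate 1. A start peak in both libraries of a strain and neither of the other was found for 1 gene in B6, Cyp2c38, where 1.86% of 9941 genes were called, and for 0 genes in MSM, where 0.644% were called. This order depended on the lists. With the lists cut to the same number of peaks it was 1 gene in B6 and 1 in MSM, Cyp2c39, and with the same covered length it was 0 in B6 and 1 in MSM, Cyp2c39 again. With at least 50% of the peak required in the window, it was 0 in B6. The share of all genes with such a peak was obtained for the whole lists only, so these altered counts have no background beside them.

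The promoters of the pair were similar in sequence, as the printed lines show. Over 250 bases before to 1000 after the start they were identical at 84.7% of aligned positions, or 90.3% with gaps left out, and each was the closest copy of the other. The share of 50-base words that occur once in the reference was counted for their peaks. In the merged parental peak of Cyp2c38 (chr19:39460674-39463091) 97.8% of the 50-base words occurred once in the genome, and in that of Cyp2c39 (chr19:39510894-39512922) 99.8% did. In the other merged regions of Cyp2c39 the share was 92.6% (chr19:39509955-39510272) and 88.2% (chr19:39512973-39513317). The MSM sequence was not used here, and whether MSM reads were lost at Cyp2c38 or B6 reads placed elsewhere was not tested.

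**Figure D2:**
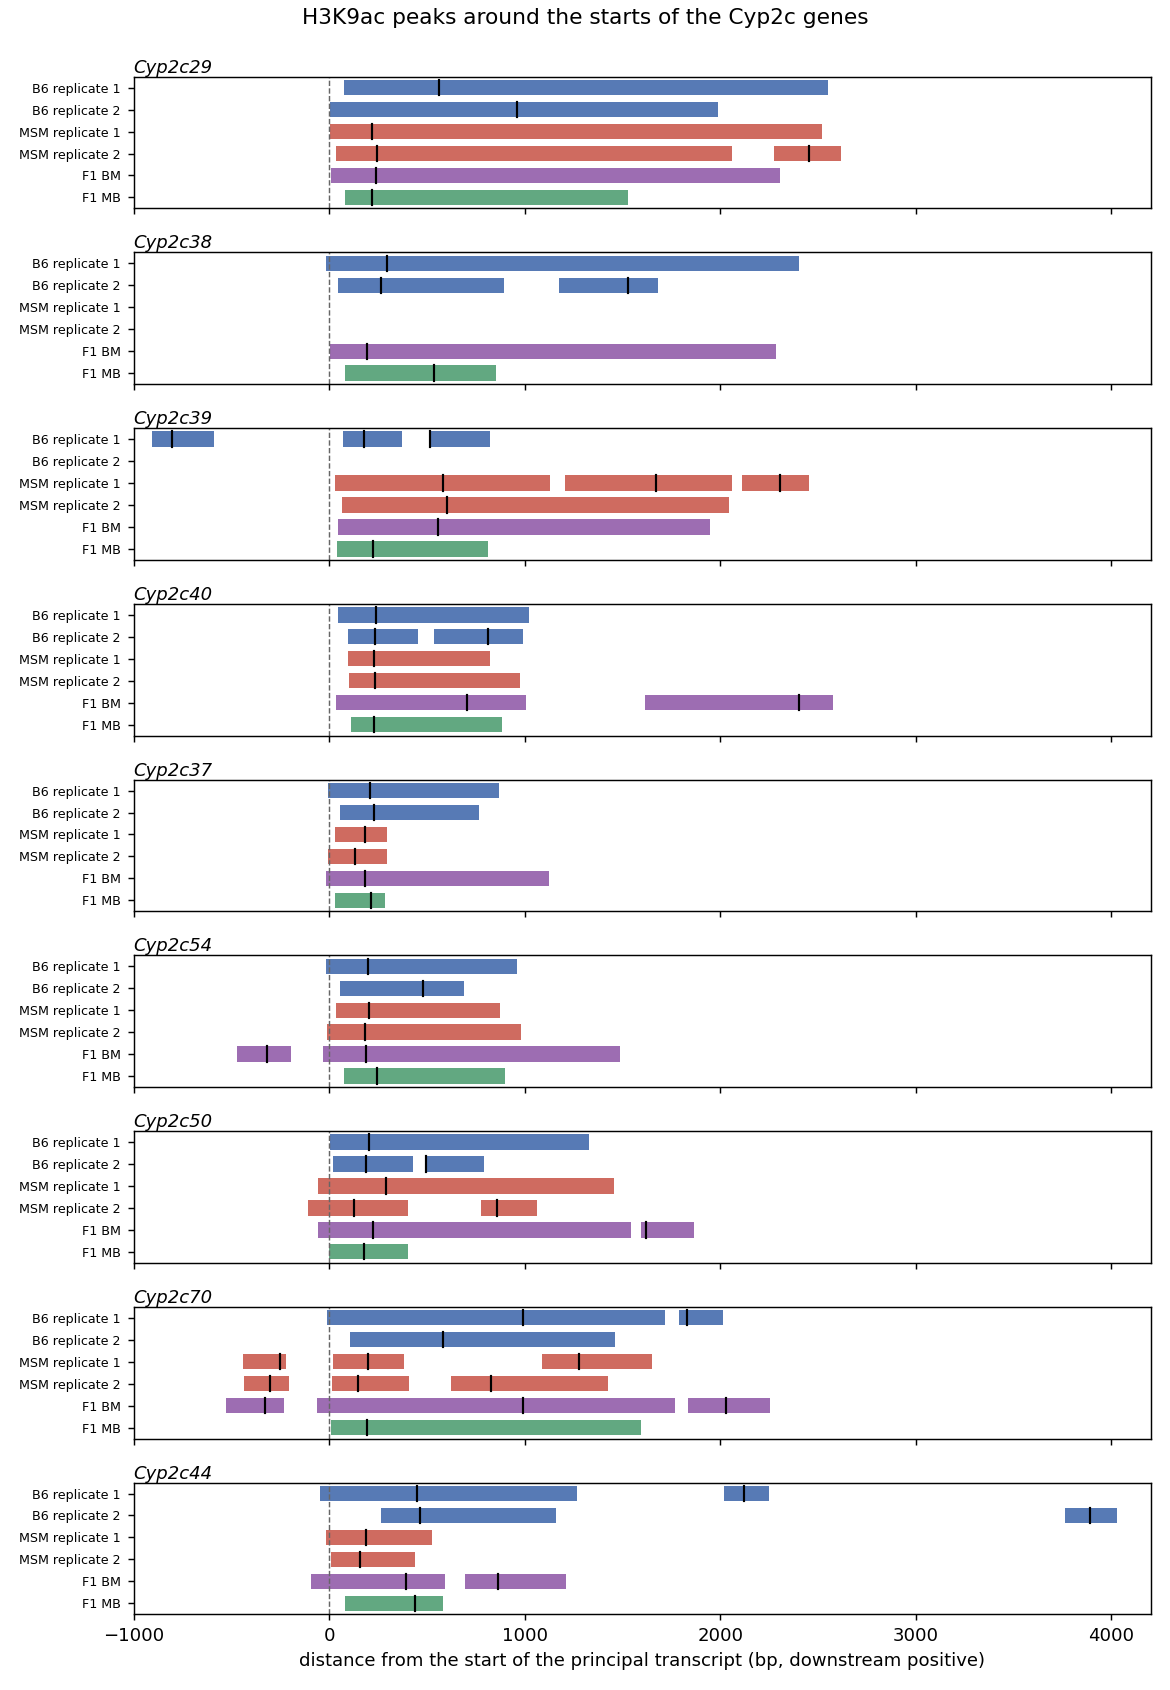
Peaks of the 9 Cyp2c genes that had any, as bars against the distance from the start of the principal transcript (bp, downstream positive, dashed line at the start), with 1 row per library and a black tick at each summit. Cyp2c38 had no bar in either MSM library, Cyp2c39 had none in B6 replicate 2, and the bars of Cyp2c37 and Cyp2c44 ended closer to the start in MSM than in B6.

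At Cyp2c37 and Cyp2c44 both strains had a peak at the start, and the MSM peak ended earlier. Cyp2c37 hydroxylates arachidonic acid, and Cyp2c44 is an epoxygenase that is also expressed outside the liver. The peak of Cyp2c37 was 873 and 708 bp wide in B6, 264 and 303 bp in MSM, 1139 bp in F1 BM and 261 bp in F1 MB. B6 was 2.79 times MSM (MSM minus B6 −507 bp, pooled SD 84.8, exact permutation p = 0.333). The peak began at about the same place in each library, between 15 bp upstream and 57 bp downstream of the start. It was the downstream edge that moved, which lay at 868 and 764 bp in B6 and at 295 and 298 bp in MSM (difference −519.5 bp, pooled SD 52.0, exact permutation p = 0.333). F1 BM reached to 1123 bp, past B6, and F1 MB only to 288 bp, as in MSM. The fold enrichment of this peak overlapped between the strains, with 8.92 and 5.11 in B6 and 4.23 and 6.38 in MSM.

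The length under peaks at Cyp2c44 was 1542 and 1162 bp in B6, 541 and 428 bp in MSM, 1202 bp in F1 BM and 505 bp in F1 MB. B6 was again 2.79 times MSM (MSM minus B6 −867.5 bp, pooled SD 198, exact permutation p = 0.333). The downstream edge of the start peak lay at 1265 and 1159 bp in B6, 524 and 437 bp in MSM and 584 bp in F1 MB (MSM minus B6 −731.5 bp, pooled SD 68.6, exact permutation p = 0.333). In F1 BM the peak at the start ended at 591 bp, and a separate peak ran from 695 to 1209 bp. F1 BM was thus like B6 in length under peaks, but its peak at the start ended close to where those of MSM and F1 MB did. F1 MB was like MSM, as at Cyp2c37. The F1 libraries also differed in list length (20173 and 13235 peaks), and with 1 mouse per cross a cross difference and a library difference cannot be told apart. B6 had further short peaks within Cyp2c44, 2021 to 2247 bp downstream of the start in B6 replicate 1 and 3762 to 4028 bp in B6 replicate 2, neither shared by another library. The strongest fold was 11.2 and 6.53 in B6 and 6.95 and 6.13 in MSM, so the strains overlapped in fold. Ranked within their lists these peaks did not overlap, at the percentile of 91.9 and 84.9 in B6 and 79.3 and 69.4 in MSM (exact permutation p = 0.333).

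The stretch under both B6 peaks and neither MSM peak was chr19:39992723-39993188 (466 bp) at Cyp2c37 and chr19:44028040-44028674 (635 bp) at Cyp2c44, in the first intron of both genes. In the reference 90.2% and 93.2% of their 50-base words occurred once. At Cyp2c37 the non-unique words were more frequent in the shared part close to the start, so that the whole merged peak had 75.8% unique words. Its closest copy was Cyp2c54, with 92.0% identity around the start.

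Cyp2c70 and Cyp2c40 were the genes called on fold enrichment. Cyp2c70 makes muricholic acids, the bile acids typical of mouse. Its strongest peak had a fold of 7.38 and 7.56 in B6, 5.22 and 6.82 in MSM, 5.37 in F1 BM and 5.74 in F1 MB. Both B6 libraries lay above both MSM libraries (MSM minus B6 −1.45, pooled SD 0.806, exact permutation p = 0.333). The percentile of this peak in its list overlapped, at 73.6 and 92.0 in B6 and 56.5 and 77.2 in MSM, and with the lists cut to the same covered length a library of each strain had no peak left at the start. The length under peaks was 1955 and 1359 bp in B6, 1152 and 1428 bp in MSM, 2540 bp in F1 BM and 1586 bp in F1 MB, and overlapped. It was called higher in B6 with the lists cut to the same number of peaks, with either stricter threshold on peaks (−481.5 bp in these 3 cases) and with the gene body alone (−595 bp). In both B6 libraries and both F1 libraries 1 unbroken peak of 1359 to 1829 bp began near the start. In both MSM libraries this peak was broken into a piece of 365 and 393 bp at the start and a piece of 565 and 801 bp further downstream. B6 replicate 1 and F1 BM had separate short peaks beyond the unbroken one.

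In MSM a further small peak lay upstream of Cyp2c70, 442 to 204 bp before the start (chr19:40187490-40187728, outside the gene body), 222 and 234 bp wide, with a fold of 3.002 and 2.20. F1 BM had a peak there too, with a fold of 3.87, and neither B6 library nor F1 MB had one. It was the only region of the Cyp2c genes with a peak in both MSM libraries and neither B6 library, and it was among the weakest peaks of MSM replicate 2 (−log10 q of 1.35). Of 15 merged parental regions in the 10 genes, 1 was found in B6 only (Cyp2c38) and 1 in MSM only. The count in B6 was 0 with the lists cut to the same covered length, and it rose when either B6 library was left out. The count in MSM was 0 with a −log10 q of at least 5, with a fold of at least 4 or with the gene body alone. It rose without B6 replicate 1 and without MSM replicate 2. Over all 25803 regions of the whole lists, with both libraries of each strain, 3.29% were found in B6 only and 3.38% in MSM only. No such share was obtained under the other settings, so the counts under them have no background beside them. Of the other 13 regions, 7 had a peak in all 4 parental libraries, 1 in 3 of them and 5 in a single library.

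Cyp2c40 hydroxylates arachidonic acid. Its strongest peak had a fold of 4.26 and 4.90 in B6, 5.48 and 7.94 in MSM, 6.76 in F1 BM and 4.96 in F1 MB. Both MSM libraries lay above both B6 libraries (MSM minus B6 +2.13, pooled SD 1.27, exact permutation p = 0.333). Its length under peaks was 974 and 810 bp in B6 and 729 and 877 bp in MSM, and did not separate the strains. F1 BM had 1939 bp, through a second peak 1614 to 2577 bp downstream of the start that no other library had, and F1 MB had 775 bp. On fold, 1 of 7 genes with a peak in all 4 parental libraries was called in B6 (10.8% of 6706 genes) and 1 of 7 in MSM (8.59%), which is near the background. Only 66.6% of the 50-base words in the peak of Cyp2c40 occurred once in the genome, and 178 of the 309 others were shared with Cyp2c69, which had 96.2% identity around the start.

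**Figure D3:**
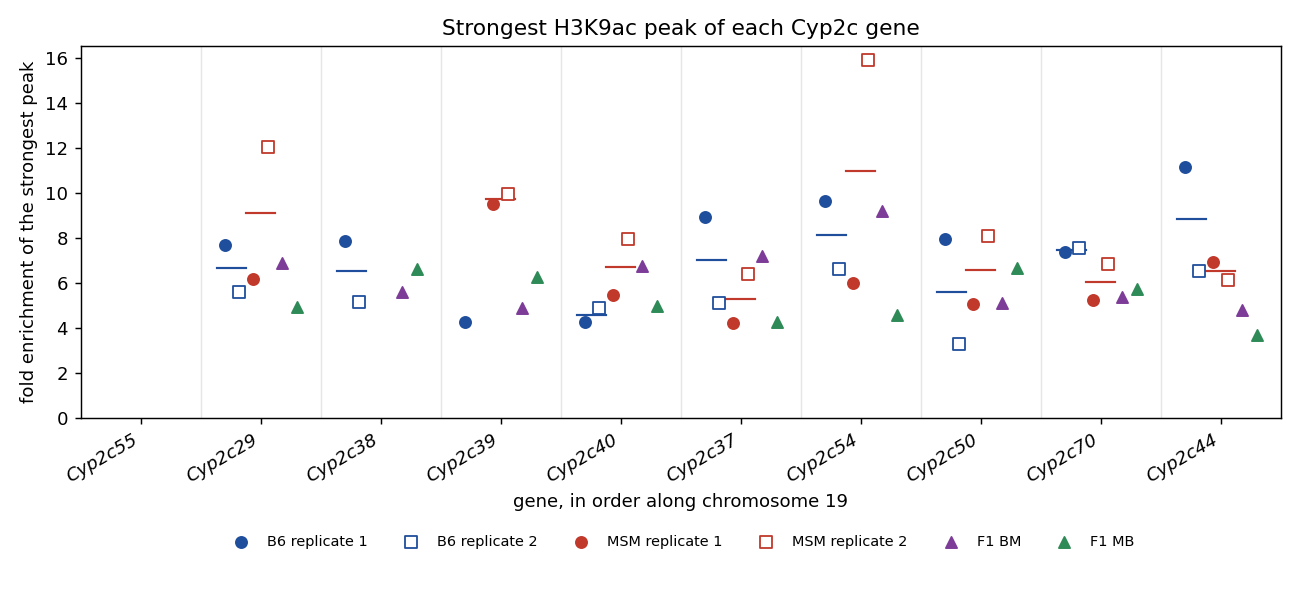
Fold enrichment over background of the strongest peak of each Cyp2c gene, 1 point per library, with a horizontal line at the mean of a strain where both of its libraries had a peak. Points are missing where a library had no peak. Both B6 points lay above both MSM points at Cyp2c70, and both MSM points above both B6 points at Cyp2c40.

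Cyp2c29, Cyp2c54 and Cyp2c50, which are epoxygenases as well, did not separate the strains on either measure in the whole lists. Cyp2c29 had the widest mark of the family in MSM, with 2515 and 2364 bp, against 2477 and 1985 bp in B6, 2301 bp in F1 BM and 1446 bp in F1 MB (MSM minus B6 +208.5 bp, pooled SD 257, exact permutation p = 0.667). With the lists cut to the same covered length the difference was +1447 bp and the strains did not overlap (exact permutation p = 0.333). Its fold was 7.70 and 5.600 in B6 and 6.18 and 12.1 in MSM. The annotated gene of Cyp2c29 starts 17669 bp upstream of the start of its principal transcript, and all of its peaks lay at the latter, from 6 bp downstream of it. At Cyp2c54 the length under peaks was 978 and 633 bp in B6, 838 and 995 bp in MSM, 1802 bp in F1 BM and 827 bp in F1 MB. The strongest single peak of the family was that of Cyp2c54 in MSM replicate 2, with a fold of 15.9, at the percentile of 99.4 of its list, whereas MSM replicate 1 had 6.01 and B6 9.64 and 6.60. In the merged parental peak of Cyp2c54 82.4% of the 50-base words occurred once in the genome, and in that of Cyp2c50 78.4% did. At Cyp2c50 the length was 1325 and 708 bp in B6, 1514 and 796 bp in MSM, 1876 bp in F1 BM and 402 bp in F1 MB. Its upstream edge lay 56 and 106 bp before the start in MSM and 4 and 20 bp after it in B6 (MSM minus B6 −93 bp, pooled SD 26.2, exact permutation p = 0.333). Besides this edge and the downstream edges of Cyp2c37 and Cyp2c44, the strains did not overlap at 2 further genes. These were Cyp2c40 (downstream edge, −105.5 bp) and Cyp2c70 (downstream −685.5 bp, upstream −487.5 bp). At the other edges compared they overlapped. No share of all genes was obtained for edges, so none of these differences has a background beside it.

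Cyp2c55, the first gene of the cluster, had no peak in any of the 6 libraries. It is known for expression in the intestine and for induction in liver by foreign compounds. Its promoter holds TATAAA 29 to 24 bases before the start, and 86.8% of the 50-base words around its start occurred once in the genome.

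The marked starts of the family shared a form. The peak began at the start and ran downstream, so that little of the promoter itself was under it. The median upstream edge of the start peak over the Cyp2c genes was 9 bp before the start in B6 replicate 1, 56.5 bp after it in B6 replicate 2, 19 and 3 bp after it in MSM, 15 bp before it in F1 BM and 74 bp after it in F1 MB. Over all other protein-coding genes with a start peak it was 408 and 14 bp before the start in B6, 67 and 39 bp before it in MSM, 245 bp before it in F1 BM and 7 bp before it in F1 MB. An edge more than 200 bp upstream was found at 0 to 2 Cyp2c genes per library, and at 42.1% to 58.7% of the other genes. Downstream, the median edge of the Cyp2c genes was at 849 to 1542 bp, and that of the other genes at 608 to 757 bp. Where a Cyp2c gene had more than 1 peak within 1 kb of the start, the edges are those of their joint span. These are descriptions without a test, since the copies share their sequence.

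**Figure D4:**
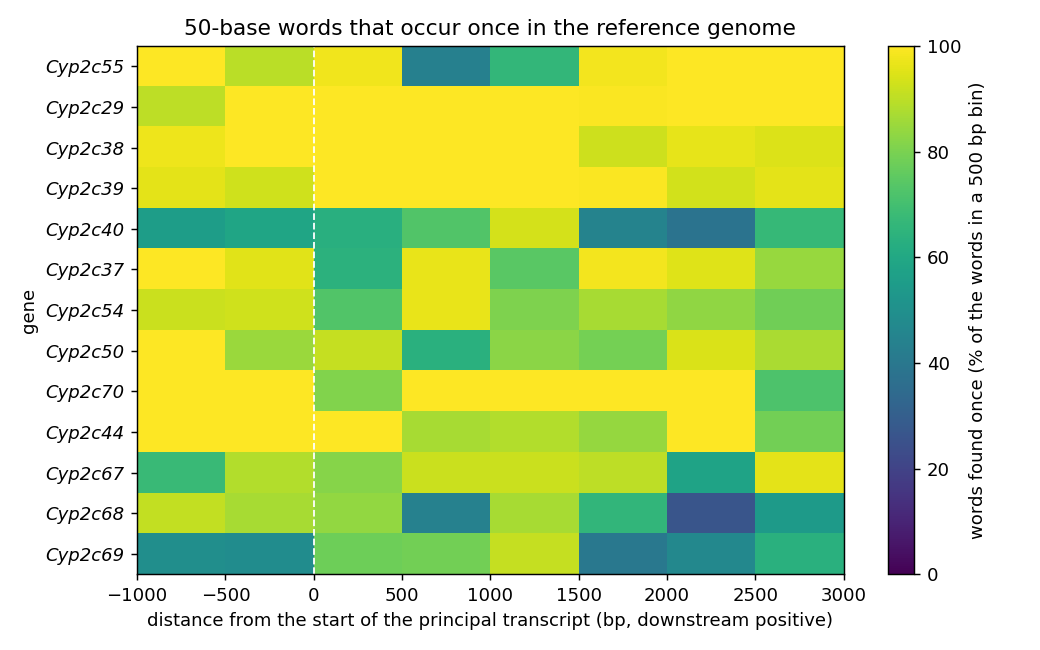
Share of 50-base words that occur once in the reference genome (GRCm38.p6, both strands), in bins of 500 bp from 1000 bp before to 3000 bp after the start of the principal transcript, for the 10 Cyp2c genes and for Cyp2c67, Cyp2c68 and Cyp2c69. Over the whole window the share was 97.6% at Cyp2c38 and 97.1% at Cyp2c39, and 61.6% at Cyp2c40.

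The other genes around the family gave the following background. Of the 5 further protein-coding Cyp2c genes, Cyp2c68 and Cyp2c69 had a start peak in all 6 libraries, Cyp2c65 and Cyp2c66 had none, and Cyp2c67 had one in F1 BM only. Of these 5 genes, 2 had a parental peak, Cyp2c68 and Cyp2c69. Only Cyp2c68 was called, higher in B6, where the rule called 11.6% of all genes with a peak. Its length under peaks was 1786 and 1698 bp in B6 and 1446 and 1394 bp in MSM. In F1 BM it was 2215 bp, and in F1 MB 1673 bp. Around the start of Cyp2c68, 67.5% of the 50-base words occurred once in the genome. Whether reads were lost or misplaced there was not tested. Of 34 other Cyp2 genes, 19 had a parental peak, 6 were called higher in B6 and 7 in MSM, beside 11.6% and 4.97% of all genes with a peak. Of 10 partners and regulators of these enzymes (the receptors and factors Nr1i2, Nr1i3, Rxra, Hnf4a, Cebpa and Nr3c1, the electron donors Por and Cyb5a, and the epoxide hydrolases Ephx1 and Ephx2), 1 was called. This was Ephx2, called higher in B6, where the rule called 11.6% of all genes, so the count is near the background. Ephx2 is the soluble epoxide hydrolase that breaks down the epoxides these enzymes make. Its length under peaks was 3008 and 1306 bp in B6, 681 and 547 bp in MSM, 2555 bp in F1 BM and 949 bp in F1 MB. Of the genes next to the cluster, Pdlim1 had a start peak in all 6 libraries, Tbc1d12 in 4 of 6 and Hells in none, and none of them was called. Of 17 genes known as higher in female liver, 7 were called higher in B6 and 7 in MSM, and of 8 male-biased genes with a parental peak, 1 and 4, again beside 11.6% and 4.97% of all genes.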

How the data were processed

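H3K9ac ChIP-seq libraries of 6 livers were analysed, and groups and replicate numbers came from the sample titles. The authors immunoprecipitated formaldehyde-fixed liver chromatin with an H3K9ac antibody and sequenced 50-bp read pairs. The labels list Trim Galore, HISAT2, SAMtools and MACS2 and the builds mm10 and GRCm38, without versions, whereas the study's methods name Bowtie 2 as the aligner, so the aligner is uncertain. The calling threshold and the use of input are not given in the sources used here. Reads of all mice were mapped to the B6 sequence, so MSM reads over differing sequence may be lost and reads over near-identical copies misplaced.

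The deposited files were 1 narrowPeak list per library, called without pooling. The fold enrichment in the deposited lists is a linear ratio over the caller's background. The −log10 of the p-value and q-value are as the authors' caller wrote them, and the lowest −log10 q per list lay between 1.30 and 1.35. The score in the deposited lists is a scaled −log10 q and was not used. The deposited lists hold no counts, so sequencing depth did not enter the comparisons.

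Peaks were assigned to GENCODE M21 genes with Python 3.11.15 and numpy 2.4.6, tests were exact permutations over libraries, and figures were drawn with matplotlib 3.10.9. The principal transcript, also used in an alternative chosen after seeing the data, was the first APPRIS principal transcript with a CCDS entry of a gene, or the gene start where there was none. All 10 genes were named, and genes of other lists by whether their strains overlapped. Promoters came from RefSeq (GRCm38.p6), and 50-base words were counted on both strands of the 21 assembled chromosomes. The functions were tested on simulated data. The members and lists were chosen with earlier results of these data known. p-values measure the spread between mice, 2 per strain. Replicate numbers are labels only and do not pair mice. Alternatives were lists cut to the same number of peaks or the same covered length, stricter thresholds, other regions and windows, other rules of overlap, scaling by list length, ranks of the fold, a replicate block and leaving out each library. A few items of the gene and motif lists are not reported here.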

Additional observations from a re-analysis of the deposited data

Results flagged for a closer look

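A peak at the start of Cyp2c67, a gene outside the 10 described, was present in F1 BM and in no other library. It covered 1121 bp, from 22 bp before to 1098 bp after the start, with a fold enrichment of 4.65 and a −log10 q of 15.5. F1 BM had no replicate, so whether the peak belongs to the cross or to this library was not tested. Around the start of Cyp2c67, 83.1% of the 50-base words occurred once in the genome, and the most shared copy was Cyp2c69.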

How the results depend on the processing

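The summed length under peaks of the Cyp2c genes (MSM minus B6, −1585 bp) turned to 2427 bp with lists cut to the same covered length, and ranged from −3960.5 to 790.5 bp when 1 parental library was left out, the value above 0 being that without B6 replicate 1. With the replicate block it was −1585 bp (exact sign-flip p = 1, smallest possible 0.5). The numbers name mice and do not pair them, and 2 mice a strain are too few for a small p with or without the block.

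With lists cut to the same covered length, 2 genes were higher in MSM on length, 0 in either strain on fold, 0 had a start peak in B6 only, 1 (Cyp2c39) had one in MSM only, and 0 regions were found in B6 only. With the same number of peaks, 1 gene had a start peak in MSM only. With at least 50% of the peak required in the window, 0 had a start peak in B6 only. Shares of all genes for fold and start peaks, and of all regions, were obtained for the whole lists only. The MSM-only region upstream of Cyp2c70 was lost (0 regions) with a −log10 q of at least 5, with a fold of at least 4 and with the gene body alone. On ranks of the fold, Cyp2c54 turned to −1.88 percentile points the call of Cyp2c70 was lost and Cyp2c44 was called higher in B6. That region lay outside the gene body and its peaks were below these limits in both MSM libraries, so its loss follows from the construction. The peaks missing with the same covered length or number of peaks were not among the strongest kept. With at least 50% of the peak required, the Cyp2c38 peak of B6 replicate 1 failed through its width. It was 2418 bp wide, from 16 bp before to 2401 bp after the start, and lay mostly outside the window of 1 kb. The cause of the other changes was not tested.

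Leaving out 1 library, which makes a lone library count as its strain, gave 3 to 5 genes higher in B6 and 1 to 4 in MSM on length, 1 to 3 and 1 to 4 on fold, 0 to 1 genes with a start peak in MSM only, and 1 to 4 regions in B6 only and 1 to 3 in MSM only. The highest counts for B6 came without B6 replicate 2 (on length and fold, as many without MSM replicate 2), and that on length for MSM came without B6 replicate 1. Leaving out a library cannot end a call without overlap, so these fits and the block say nothing of its stability. No share of all genes or of all regions was obtained with a library left out. The counts of genes and regions from these fits therefore have no background beside them, and nothing is read from their rise. Of the 10 other alternatives, the call of Cyp2c38 held under 9 and those of Cyp2c39, Cyp2c37 and Cyp2c44 under 10. The fold calls of Cyp2c40 and Cyp2c70 had no value with the same covered length, and held under 9 of 9 and 8 of 9 of the rest. Most of these alternatives kept the same peaks, so that some values could not change. At Cyp2c37 the difference stayed at −507 bp except with the same covered length and with scaling by list length. The fold difference of Cyp2c40 stayed at 2.13 except on ranks. The numbers of alternatives held are therefore no measure of stability. Without read counts, a missing peak cannot be told from one too weak for the depth of a library.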
